A study of Mus musculus with 15 samples.

Results

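The midbrain transcriptome of transgenic mice treated with carnosine through the nose was compared with that of untreated wild-type mice, across every gene with enough counts to test. The members were chosen by their labels alone: 3 libraries of nasally treated transgenic mice (TG intranasal) and 3 of wild-type controls (WT control), 6 of the 15 libraries of the study. WT mice were BDF1, a hybrid mouse background, and the WT controls were labelled as controls with no carnosine dose. TG mice carried the Thy1-aSyn transgene, which the neuronal Thy1 promoter drives, and the TG intranasal mice received 2 mg of carnosine intranasally. Mice were 2 months old at the start and were treated for 2 months, per the labels, which give neither the sex of the animals nor a vehicle for the controls. The other 9 libraries came from WT mice given the same nasal dose, untreated TG mice and TG mice given 10 mM carnosine in the drinking water, 3 of each. The compared groups differ in genotype and in treatment together, and the contrast therefore cannot tell the transgene from the carnosine. Nothing in the labels says that the 3 libraries of a group came from separate animals, so p-values measure the spread between libraries, which may be technical.

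Carnosine is a dipeptide of beta-alanine and histidine that buffers protons, binds metals such as zinc and reacts with carbonyl compounds. The midbrain holds the dopamine neurons of the substantia nigra and ventral tegmental area, whose loss underlies the movement signs of Parkinson's disease, and the Thy1 promoter is active in many projection neurons. A bulk library also holds glia, vessels and the fibroblast layers of the meninges that cover the brain, so fewer cells of a type and less RNA per cell cannot be told apart in any value below.

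The sequences that belong to the genes past the threshold are given here before their values. Promoters are 300 bases long, 250 before to 50 after the gene start, on the gene's strand in RefSeq on GRCm38.p6. They are shown for the 3 genes called higher in TG intranasal that had an entry; Thy1 and Mpzl2 are named only. Capitals mark matches to 4 motifs, searched on both strands. The motif of the TATA box was spelled TATAAA. The letters CCAAT stood for the box of that name. For the GC box the letters searched were GGGCGG. The AP-1 element was taken as TGA, any base, then TCA.
Efemp1 (chr11:28852955-28853254, plus strand): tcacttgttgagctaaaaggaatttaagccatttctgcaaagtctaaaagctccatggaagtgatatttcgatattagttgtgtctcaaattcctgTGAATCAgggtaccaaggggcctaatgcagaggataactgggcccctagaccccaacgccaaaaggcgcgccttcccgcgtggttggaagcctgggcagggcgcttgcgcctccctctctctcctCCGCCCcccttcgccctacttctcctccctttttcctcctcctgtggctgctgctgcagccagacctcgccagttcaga
Islr (chr9:58158505-58158804, minus strand): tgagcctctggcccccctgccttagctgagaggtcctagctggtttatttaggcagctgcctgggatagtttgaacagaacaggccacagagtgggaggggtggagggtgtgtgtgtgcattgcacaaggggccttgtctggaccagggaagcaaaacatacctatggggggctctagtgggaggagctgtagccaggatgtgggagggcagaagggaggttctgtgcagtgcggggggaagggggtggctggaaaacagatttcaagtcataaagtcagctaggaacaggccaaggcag
Bmp4 (chr14:46390620-46390919, minus strand): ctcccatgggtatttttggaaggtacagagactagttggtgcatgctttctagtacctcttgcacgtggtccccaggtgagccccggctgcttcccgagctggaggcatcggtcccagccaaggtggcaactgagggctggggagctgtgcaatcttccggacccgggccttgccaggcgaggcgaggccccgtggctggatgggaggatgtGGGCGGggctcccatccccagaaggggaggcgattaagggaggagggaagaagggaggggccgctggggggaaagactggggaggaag
The Efemp1 window held 1 GC box, read on the other strand, and 1 AP-1 element, the Bmp4 window held 1 GC box, and the Islr window held none of the 4 motifs. Among 27025 mouse promoters of the same length, 35.9% held the GC box, 7.93% the AP-1 element, 37.9% the CCAAT box and 14.2% the TATA box. The GC content of the windows was 54.3% for Efemp1, 57% for Islr and 64% for Bmp4.

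Mature miRNAs are shown for the 2 miRNA genes called lower, with the seed, bases 2 to 8, in capitals, from RefSeq on GRCm38.p6.
mmu-miR-6240 (chr5:114851973-114851998, plus strand): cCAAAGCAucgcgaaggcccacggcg
mmu-miR-6236 (chr9:110281353-110281371, plus strand): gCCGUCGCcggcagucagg
Their seeds differ, and their GC content was 69.2% and 78.9%. The libraries were made from total RNA, and the counts of both genes are reads over the gene; whether any came from the mature miRNA was not tested.

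Thy1, which encodes a surface glycoprotein of neurons and whose promoter drives the transgene, was read before any other gene as a check of the genotype labels. Its level was 676, 694 and 533 CPM (read counts scaled to library size) in WT control 1, 2 and 3, and 5032, 4576 and 3951 CPM in TG intranasal 1, 2 and 3. All 3 TG intranasal libraries lay above all 3 WT controls, with a log2 fold change of 2.83 (SE 0.18) and an adjusted p of 5.25e-07 in the quasi-likelihood test of edgeR after Benjamini-Hochberg adjustment, the source of every adjusted p below unless another tool is named. Untreated TG mice had 3878 ± 517 CPM and TG mice on carnosine water 3857 ± 501 CPM (SD, n = 3 each), whereas WT mice given carnosine nasally had 477 ± 46.4 CPM (SD, n = 3). All 15 libraries thus sat on the side of Thy1 that their genotype label gives. The difference between TG intranasal and TG control was 0.22 (SE 0.17; adjusted p = 0.623). Whether these reads came from the native gene or from transgene sequence was not tested.

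The compared libraries differed in depth and in the share of counts taken by an abundant row without a gene name. WT control libraries held 13202199 to 17759834 counts and TG intranasal libraries 23055862 to 34843691. The most abundant row without a gene name took 2.39% to 6.22% of the counts in the WT controls and 0.165% to 0.283% in the TG intranasal libraries. Over the study it exceeded 1% in 8 libraries, which were the 6 of WT mice with TG control 1 and 2, and stayed below it in the other 7, which were TG control 3 and every TG library given carnosine. Among the 6 libraries compared, this split and the groups coincide and cannot be told apart. WT control 1 and TG intranasal 3 stood farthest from the other 14 libraries, with mean distances of 0.892 and 0.902 (root mean square difference in log2 CPM) against 0.660 to 0.779 for the other 13. WT control 1 also held 718 CPM of Gh, pituitary growth hormone, where the other 5 compared libraries held 11.5 to 58.5 CPM. Markers of the labelled tissue were present at low levels. Th, which makes the dopamine precursor, had 11.5, 19.1 and 7.38 CPM in WT control and 18.5, 13.3 and 2.96 CPM in TG intranasal. Slc6a3, the dopamine transporter, had 3.20, 15.9 and 4.30 CPM in WT control and 21.0, 6.48 and 0.474 CPM in TG intranasal. Both genes were lowest in TG intranasal 3, and the groups overlapped.

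Across the transcriptome, the mean distance from nasally treated TG to untreated WT midbrain exceeded the mean distances within the groups by less than the SD between pairs. The 9 distances between a TG intranasal and a WT control library averaged 0.831 ± 0.0886 (SD over pairs that share libraries), with a range of 0.742 to 0.991. The 3 distances among WT controls were 0.728 to 0.856, with a mean of 0.800, and the 3 among TG intranasal libraries were 0.651 to 0.913, with a mean of 0.806. Distances to the WT controls averaged 0.792 for untreated TG, 0.803 for nasally treated WT and 0.799 for TG on carnosine water, and each of these ranges overlapped the range within WT control. The median absolute log2 fold change over all 15818 tested genes was 0.208 for TG intranasal against WT control, set beside 0.287 for TG control, 0.313 for WT intranasal and 0.295 for TG drinking water, all of which share the WT control libraries.

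**Figure D1:**
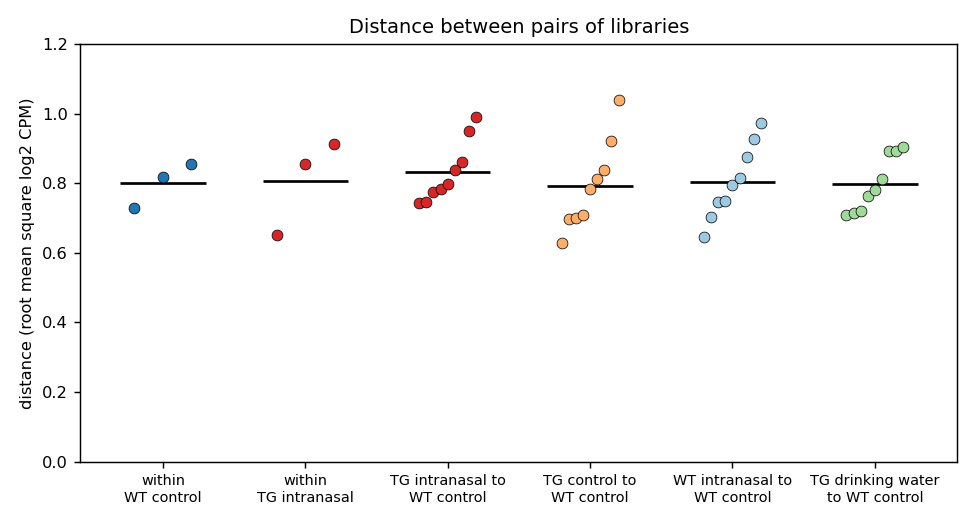
Distance between pairs of libraries, as the root mean square difference in log2 CPM over all tested genes (vertical axis, from 0), for pairs within a group and pairs of each other group with WT control. Each point is a pair and each line the mean: pairs of TG intranasal with WT control average 0.831, beside 0.800 within WT control and 0.806 within TG intranasal.

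Of the 15818 genes, 14 passed an adjusted p of 0.05, or 0.0885% of those tested, 6 of them higher in TG intranasal (0.0379%) and 8 lower (0.0506%). At an unadjusted p of 0.05, 697 genes were higher (4.41%) and 939 lower (5.94%), and 92 genes passed an unadjusted p of 0.001 (0.582%). In 984 genes (6.22%) all 3 TG intranasal libraries lay above all 3 WT controls, and in 1010 (6.39%) all 3 lay below. The other contrasts with the same WT controls called 2 genes for TG control (0.0126%), 159 for WT intranasal (1.01%) and 592 for TG drinking water (3.74%), and TG intranasal against TG control called 1 (0.00632%). DESeq2's Wald test called 154 genes in the contrast described here, and a term for the library split left only Thy1 called. Only TG control held libraries on each side of the split, 2 and 1, so every fit with this term estimated it from that group alone.

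The other named genes that rose encode secreted or surface proteins of connective tissue, epithelium and growth-factor signalling. Efemp1, a fibulin of the extracellular matrix, had 4.72, 6.99 and 8.08 CPM in WT control 1, 2 and 3 and 16.6, 17.3 and 19.1 CPM in TG intranasal 1, 2 and 3. It rose by 1.41 (log2, SE 0.21; adjusted p = 0.0135). The TG intranasal values were close together, and the lowest of them was above the highest WT control.

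Islr, a leucine-rich repeat protein of mesenchymal cells, had 11.5, 11.8 and 13.7 CPM in WT control and 35.2, 33.6 and 24.4 CPM in TG intranasal. It rose by 1.34 (log2, SE 0.21; adjusted p = 0.0160), with no overlap between the groups. Mpzl2, an epithelial adhesion protein of the immunoglobulin family, had 0.421, 0.681 and 1.09 CPM in WT control and 4.96, 5.37 and 6.76 CPM in TG intranasal. It rose by 2.93 (log2, SE 0.46; adjusted p = 0.0160), and the TG intranasal libraries were all above the WT controls.

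Bmp4, a secreted ligand of the TGF-beta superfamily that oligodendrocyte lineage cells and meninges make, had 1.77, 1.42 and 1.80 CPM in WT control and 6.45, 5.05 and 4.06 CPM in TG intranasal. It rose by 1.64 (log2, SE 0.30; adjusted p = 0.0445). For Efemp1, Islr, Mpzl2 and Bmp4 alike, all 12 libraries outside the WT control group lay above all 3 WT controls, those of WT mice included. Their log2 fold changes against the same WT controls were, in untreated TG, 0.91, 0.67, 2.24 and 1.29, and in nasally treated WT, 1.07, 1.07, 2.43 and 1.43, in that order. The differences of TG intranasal from TG control were 0.50, 0.67, 0.69 and 0.35, with adjusted p-values from 0.510 to 0.633. Leaving out TG intranasal 2 ended all 4 calls, that of Efemp1 at an adjusted p of 0.0621. Leaving out WT control 1 or 2 also ended those of Islr, Mpzl2 and Bmp4, TG intranasal 1 those of Islr and Bmp4, TG intranasal 3 that of Mpzl2 and WT control 3 that of Bmp4, with adjusted p-values up to 0.113, 0.102 and 0.176 for Islr, Mpzl2 and Bmp4. With a term for the library split none of the 4 stayed called.

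**Figure D2:**
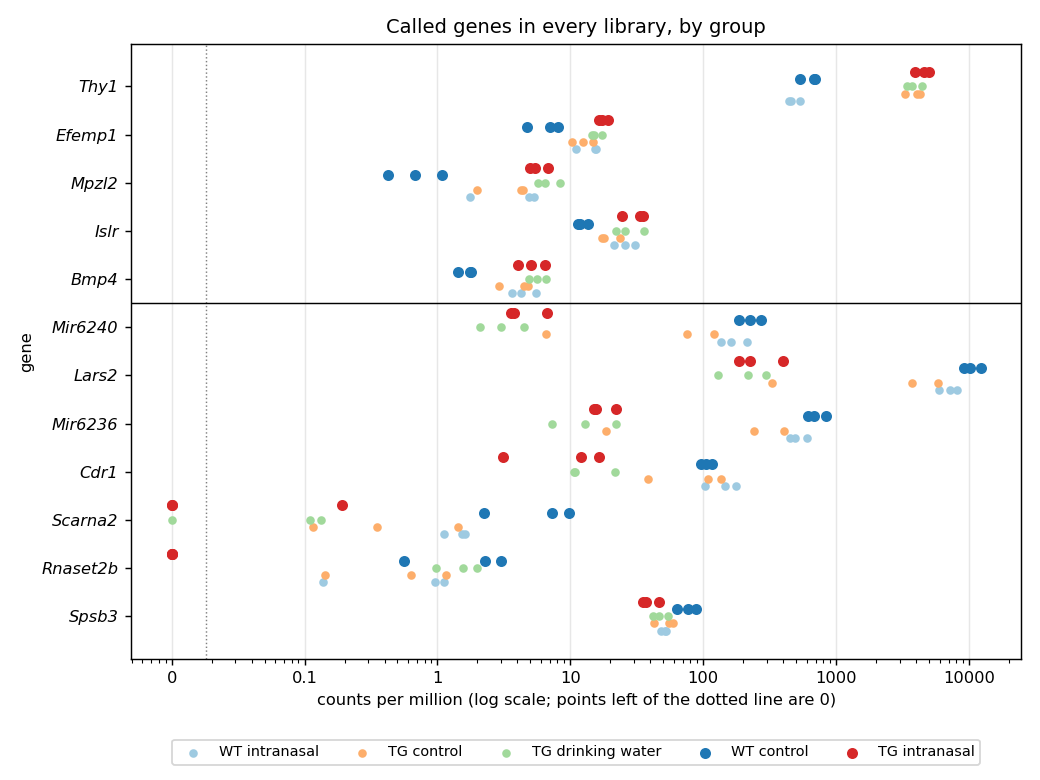
CPM (horizontal, log scale, zeros drawn at the left edge) of the named genes past the threshold in every library, coloured by group. Above the black line, Efemp1, Mpzl2, Islr and Bmp4 are lowest in the 3 WT controls, and below it Mir6240, Lars2 and Mir6236 fall into 2 clusters, with 1 TG control library beside the carnosine-treated TG libraries.

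Of the 8 genes that fell, 4 belong to a list of 7 RNAs chosen as markers of the library split in these data. Their direction is therefore no independent evidence. Another is a row without a gene name, and such rows were also treated as marking the split. Bc1, a neuronal noncoding RNA on the list, chosen after its values were seen, did not follow the split in every group. It had 1141 ± 302 CPM in nasally treated WT and 3975 ± 2202 CPM in TG intranasal (SD, n = 3 each). Lars2, the mitochondrial leucyl-tRNA synthetase, had 9204, 10140 and 12280 CPM in WT control and 399, 224 and 187 CPM in TG intranasal. It fell by 5.29 on the log2 scale (SE 0.71; adjusted p = 0.00454). No library of the 2 groups came close to the other group, and Lars2 alone held 0.828% to 1.09% of the counts of the WT controls. Whether the reads on Lars2 came from the messenger RNA of the synthetase was not tested.

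Mir6240 had 187, 223 and 271 CPM in WT control and 6.71, 3.57 and 3.79 CPM in TG intranasal, a fall by 5.59 on the log2 scale (SE 0.70; adjusted p = 0.00229). Mir6236 had 612, 680 and 836 CPM in WT control and 22.2, 15.7 and 15 CPM in TG intranasal, a fall by 5.33 on the log2 scale (SE 0.74; adjusted p = 0.00506). Scarna2, a small RNA that guides the modification of spliceosomal RNAs in Cajal bodies, had 9.77, 2.23 and 7.31 CPM in WT control, 0.191 CPM in TG intranasal 1 and 0 counts in the other 2, and fell by 6.49 on the log2 scale (SE 1.07; adjusted p = 0.0204). In untreated TG mice the values divided along the split: TG control 3 had 328 CPM of Lars2, 6.56 CPM of Mir6240 and 18.4 CPM of Mir6236, where TG control 1 and 2 had 5789 and 3747 CPM of Lars2. Without TG intranasal 2 the calls of Lars2 (adjusted p = 0.0621), Mir6236 (adjusted p = 0.0660) and Scarna2 ended, and that of Scarna2 also without WT control 1, WT control 3 or TG intranasal 3, with adjusted p-values up to 0.138. The row without a gene name fell as well (adjusted p = 0.0197), and the fit without the rows that mark the split left out all such rows. Rmrp and Rpph1, the RNA subunits of RNase MRP and RNase P, belong to the same list and were chosen after their values were seen. Their log2 fold changes were -4.27 (adjusted p = 0.0974) and -5.19 (adjusted p = 0.151). Both were positive, 4.65 and 0.73, with a term for the split.

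Cdr1, best known as the locus of a circular RNA that binds miR-7 and is abundant in neurons, had 95.7, 116 and 105 CPM in WT control and 12, 16.5 and 3.11 CPM in TG intranasal. It fell by 3.34 on the log2 scale (SE 0.51; adjusted p = 0.0135), and every TG intranasal library was far below the lowest WT control. Untreated TG libraries 1, 2 and 3 had 108, 137 and 38.5 CPM and nasally treated WT libraries 102 to 177 CPM, while TG mice on carnosine water had 10.7 to 21.7 CPM. The log2 difference from TG control was -3.17 (SE 0.51), with an adjusted p of 0.0808. Without TG intranasal 1 the call of Cdr1 against WT control ended (adjusted p = 0.0796). The circular RNA lies on the strand opposite the Cdr1 gene, and the strand setting of the counting is not given in the sources used here. The row of the overlapping antisense gene Cdr1os had 20 to 58 counts per library and a log2 fold change of -0.18 (adjusted p = 0.939).

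Malat1, a long nuclear noncoding RNA, showed the same arrangement without passing: 1043, 556 and 958 CPM in WT control and 208, 217 and 214 CPM in TG intranasal, a log2 fold change of -2.00 (SE 0.37; adjusted p = 0.0556). TG control 1, 2 and 3 had 978, 895 and 218 CPM, and nasally treated WT libraries had 793 to 943 CPM. TG control 3, which shares its side of the split with the TG libraries given carnosine, had the low value. With a term for the split the log2 fold change of Malat1 was 0.10. How much of Cdr1 and Malat1 moves with the split within this contrast was not tested beyond that fit, in which Cdr1 was at -1.67 and not called.

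Spsb3, a substrate receptor of ubiquitin ligases, had 88.7, 76.8 and 63.3 CPM in WT control and 46.4, 37.3 and 35.0 CPM in TG intranasal, and fell by 0.95 on the log2 scale (SE 0.17; adjusted p = 0.0412). All 12 libraries outside the WT control group lay below the 3 WT controls. Rnaset2b, a lysosomal ribonuclease, had 2.27, 0.557 and 3.02 CPM in WT control, from 9 to 47 counts, and 0 counts in every TG intranasal library. It was at least 58.2-fold lower, taking 3 counts over the TG intranasal group as the limit that 0 allows, with an adjusted p of 0.0412. The other 9 libraries all held counts of Rnaset2b. Its near-identical copy Rnaset2a had 0 counts in all 15 libraries, so the split of reads between the copies is uncertain. The call of Spsb3 ended without any 1 library other than WT control 3 (adjusted p up to 0.223), and that of Rnaset2b without any other than WT control 2 (adjusted p up to 0.169).

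Matrix and meningeal fibroblast genes were higher in TG intranasal as a group, although none passed alone. All 12 members had positive log2 fold changes, from 0.50 for Igf2 to 1.84 for Fmod, with a median of 0.87 beside 0.00 over all tested genes. In 10 of the 12 the groups did not overlap, where 6.22% of all genes did so in that direction. An unadjusted p under 0.05 was found for 11 of 12, where 4.41% of all genes were higher with such a p. This list, like the others, was chosen with earlier results of these data known, so these shares are no independent evidence. Fmod, a collagen-binding proteoglycan, had 11.5, 7.24 and 9.62 CPM in WT control and 45.4, 25.9 and 29.8 CPM in TG intranasal (log2 fold change 1.84, SE 0.39; adjusted p = 0.0974). Aebp1, a collagen-associated carboxypeptidase-like protein, had 10.6, 10.0 and 9.94 CPM in WT control and 29.0, 27.4 and 22.3 CPM in TG intranasal (log2 fold change 1.36; adjusted p = 0.152). The TG intranasal values of both genes were all above every WT control. The fibrillar collagens Col1a1, Col1a2 and Col3a1 had log2 fold changes of 0.77, 0.91 and 1.15, and the proteoglycans Dcn, Lum and Ogn 0.86, 0.88 and 1.31. Ptgds, the prostaglandin D synthase of the leptomeninges, was at 0.59, Mgp, an inhibitor of calcification, at 0.85, and Slc6a13, a GABA and taurine transporter, at 0.64.

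Matrix genes outside that list, chosen after their values were seen, pointed the same way without passing. Col12a1, a fibril-associated collagen, had 2.19, 2.17 and 1.67 CPM in WT control and 8.33, 6.52 and 4.89 CPM in TG intranasal (log2 fold change 1.71; adjusted p = 0.0556). Lox, which crosslinks collagen, had 0 counts in all 3 WT controls and 0.858, 0.820 and 2.16 CPM in TG intranasal, at least 18.6-fold higher with 3 counts over the WT control group as the limit (adjusted p = 0.115). The mean level of the 12 list members was 4.22, 3.89 and 4.28 log2 CPM in WT control 1, 2 and 3 and 5.36, 5.01 and 4.96 in TG intranasal 1, 2 and 3. Every other library of the study, from 4.54 to 5.73 log2 CPM, was also above the 3 WT controls. The medians of the list against the same WT controls were 0.55 for TG control, 1.17 for WT intranasal and 1.02 for TG drinking water. Leaving out 1 library at a time gave medians of 0.71 to 1.02, leaving out WT control 1 with TG intranasal 3 gave 1.03, and a term for the library split gave 1.55. How much meninges each dissection carried was not tested, and the levels above are the only measure of it.

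**Figure D3:**
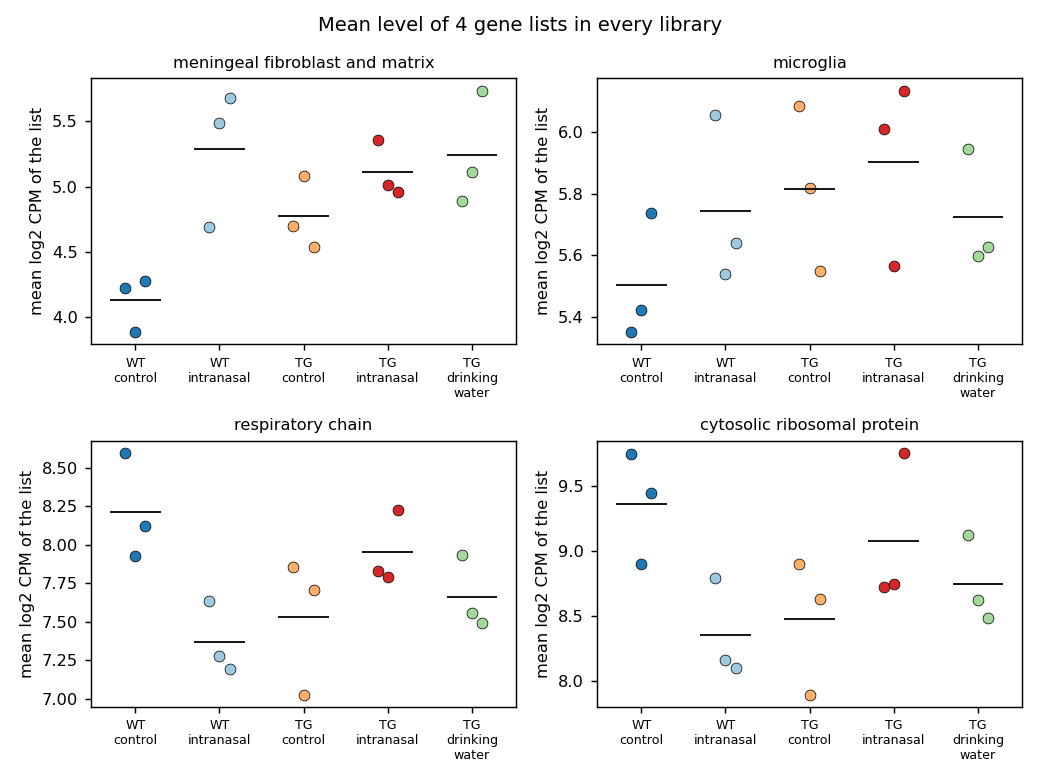
Mean log2 CPM of the members of 4 gene lists (vertical axes, not starting at 0) in each library, by group, with lines at group means. The matrix list lies between 3.89 and 4.28 in WT control and between 4.96 and 5.36 in TG intranasal, while the microglia, respiratory chain and ribosomal lists overlap between these groups.

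Immune and vascular lists had mostly positive values with wide spread, and no member passed. Of 15 microglia genes, 14 had positive log2 fold changes, with a median of 0.38, but the groups did not fully separate for any of them, and 5 were higher at an unadjusted p under 0.05, where 4.41% of all genes were. Itgam, an integrin of the complement receptor, had 9.18, 15.9 and 23.6 CPM in WT control and 32.2, 21.4 and 34.6 CPM in TG intranasal (log2 fold change 0.85; adjusted p = 0.341). P2ry12, the ADP receptor of resting microglia, had 46.2, 50.6 and 93.7 CPM in WT control and 103, 76.8 and 151 CPM in TG intranasal (log2 fold change 0.80; adjusted p = 0.351). WT control 3 overlapped TG intranasal 2 in both genes. The member with a negative value was Tyrobp, a signalling adaptor, at -0.37. The list median was 0.21 without WT control 1 and TG intranasal 3 and 0.97 with a term for the split.

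Of 17 antigen presentation and activated immune genes, 13 had positive values, with a median of 0.56, and 4 were higher without overlap, where 6.22% of all genes were. Cd74, the invariant chain of MHC class II, had 6.65, 2.35 and 6.09 CPM in WT control and 17, 9.56 and 14.7 CPM in TG intranasal (log2 fold change 1.46, SE 0.31; adjusted p = 0.0974). Clec7a, a receptor for fungal glucans that activated microglia carry, had 0, 0.248 and 0 CPM in WT control and 0.858, 0.328 and 3.85 CPM in TG intranasal (adjusted p = 0.189). Both genes were higher in every library outside the WT control group than in the WT controls. Of 16 endothelial and mural genes, 11 had positive values (median 0.24). The smallest p was that of Thbd, the thrombin receptor thrombomodulin, with 4.72, 4.15 and 5.52 CPM in WT control and 11.9, 13.9 and 13.3 CPM in TG intranasal (log2 fold change 1.44, SE 0.29; adjusted p = 0.0883). Vwf, the von Willebrand factor of vessel walls, was at 1.51 (adjusted p = 0.329). The endothelial genes Pecam1, Flt1 and Tie1 were at -0.27, -0.13 and -0.11, Cldn5, a tight junction protein, at 0.06, and Rgs5, a pericyte gene, at -0.29. Interferon response genes had a median of 0.10, with 9 of 16 positive.

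Glial lists differed among themselves. Astrocyte genes had a median of -0.07, and 8 of 12 were negative. Reactive astrocyte genes had a median of 0.52 with 12 of 14 positive and 4 higher without overlap, where 6.22% of all genes were; Ggta1, a galactosyltransferase, was at 0.97 (adjusted p = 0.322) and Vim, the filament protein vimentin, at 0.56 (adjusted p = 0.329). Myelin and oligodendrocyte genes had a median of 0.13, with 12 of 14 positive and none separated between the groups. Oligodendrocyte precursor genes had a median of 0.18, with 8 of 10 positive and 4 higher without overlap; Bmp4 was the member that passed, and Gpr17, a receptor of differentiating precursors, had 21.6, 35.9 and 41.6 CPM in WT control and 75.1, 47.2 and 51.1 CPM in TG intranasal (log2 fold change 0.80; adjusted p = 0.359).

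Neuronal identity genes showed no called member. Cholinergic and motor nucleus genes had a median of 0.64, with 7 of 8 positive, and striatal neuron genes 0.37, with 9 of 10 positive. The groups overlapped for every member of these lists. Medians of the GABA, cerebellar, serotonin and cortical neuron lists were 0.19, 0.16, -0.02 and -0.02. The 20 dopamine neuron genes had a median log2 fold change of 0.04, with 11 positive. For 2 of them all TG intranasal libraries lay below all WT controls, where 6.39% of all genes did so. An unadjusted p under 0.05 was found for 1, where 10.3% of all genes had one. That gene was Lmx1a, a transcription factor of dopamine progenitors, with 0.505, 1.24 and 0.962 CPM in WT control and 0.254, 0.0410 and 0.208 CPM in TG intranasal (log2 fold change -2.37, SE 0.73; adjusted p = 0.282). Ddc, the decarboxylase that makes dopamine and serotonin, was at 0.41 (SE 0.31; adjusted p = 0.699). The SE of Th was 0.64 and that of Slc6a3 1.12 on the log2 scale, so differences of that order were not detectable with 3 libraries a group. Of 20 synaptic vesicle genes, 12 had negative values (median -0.13), including Vamp2, the vesicle SNARE, at -0.48 (adjusted p = 0.340), whereas Snap25, its partner on the plasma membrane, was at 0.27 (adjusted p = 0.563). Of 15 postsynaptic scaffold genes, 13 had negative values (median -0.23), among them Dlg4, which encodes PSD-95, at -0.54 (adjusted p = 0.344). The median of the same scaffold list was 0.40 for TG control against WT control, 0.26 for WT intranasal and -0.35 for TG drinking water.

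Ion channel and adhesion genes gave some of the smallest p-values that did not pass. Kcnk3, a leak potassium channel, had 40.0, 46.1 and 36.2 CPM in WT control and 25.8, 26.1 and 21.1 CPM in TG intranasal (log2 fold change -0.74, SE 0.14; adjusted p = 0.0643). Hcn2, a pacemaker channel, had 561, 429 and 426 CPM in WT control and 320, 304 and 285 CPM in TG intranasal (log2 fold change -0.64, SE 0.15; adjusted p = 0.145). Pcdh11x, a protocadherin of the X chromosome, had 4.63, 9.04 and 8.40 CPM in WT control and 1.11, 1.48 and 0.711 CPM in TG intranasal (log2 fold change -2.76, SE 0.51; adjusted p = 0.0546). The groups did not overlap in any of these. Of the 12 libraries outside the WT control group, 12 lay below the WT controls in Hcn2, 11 in Kcnk3 and 8 in Pcdh11x. Over the whole potassium channel list the median was 0.00, and over the protocadherins -0.08.

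Genes of energy metabolism and translation had mostly negative values of small size. Of 73 nuclear respiratory chain genes, 63 were negative (median -0.25), 17 were lower without overlap, where 6.39% of all genes were, and 13 were lower at an unadjusted p under 0.05, where 5.94% were. The smallest adjusted p was 0.303. Ndufs7, a subunit of complex I, had 238, 178 and 139 CPM in WT control and 126, 117 and 123 CPM in TG intranasal (log2 fold change -0.60). Atp5e, a subunit of ATP synthase, had 1114, 491 and 647 CPM in WT control and 351, 295 and 480 CPM in TG intranasal (adjusted p = 0.322). For both genes WT control 1 had the highest value. The list median was -0.09 without that library, -0.43 without TG intranasal 3 and -0.45 with a term for the split. Of 77 cytosolic ribosomal protein genes, 56 were negative (median -0.24), Rpl8 at -0.72 and Rplp1 at -0.98, and of 78 mitochondrial ribosomal protein genes 54 were negative (median -0.10). Medians of the respiratory list were larger in the other contrasts with these controls, at -0.66 for TG control, -0.86 for WT intranasal and -0.54 for TG drinking water.

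Transcript length moved with these values. Of 10 classes of equal size, the shortest genes, with a median transcript of 1088 bases, had a median log2 fold change of -0.15, and the longest, at 8374 bases, had 0.09. Across 15081 genes, which are not independent, the Spearman correlation of fold change with length was 0.207 and with GC content -0.352. The respiratory and cytosolic ribosomal lists have median lengths of 1129 and 1094 bases, against 3411 over all genes and 3476 for the matrix list. With a correction for length and GC content the respiratory median was -0.13 and the matrix median 0.91. The part of length in the respiratory values beyond that was not tested.

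**Figure D4:**
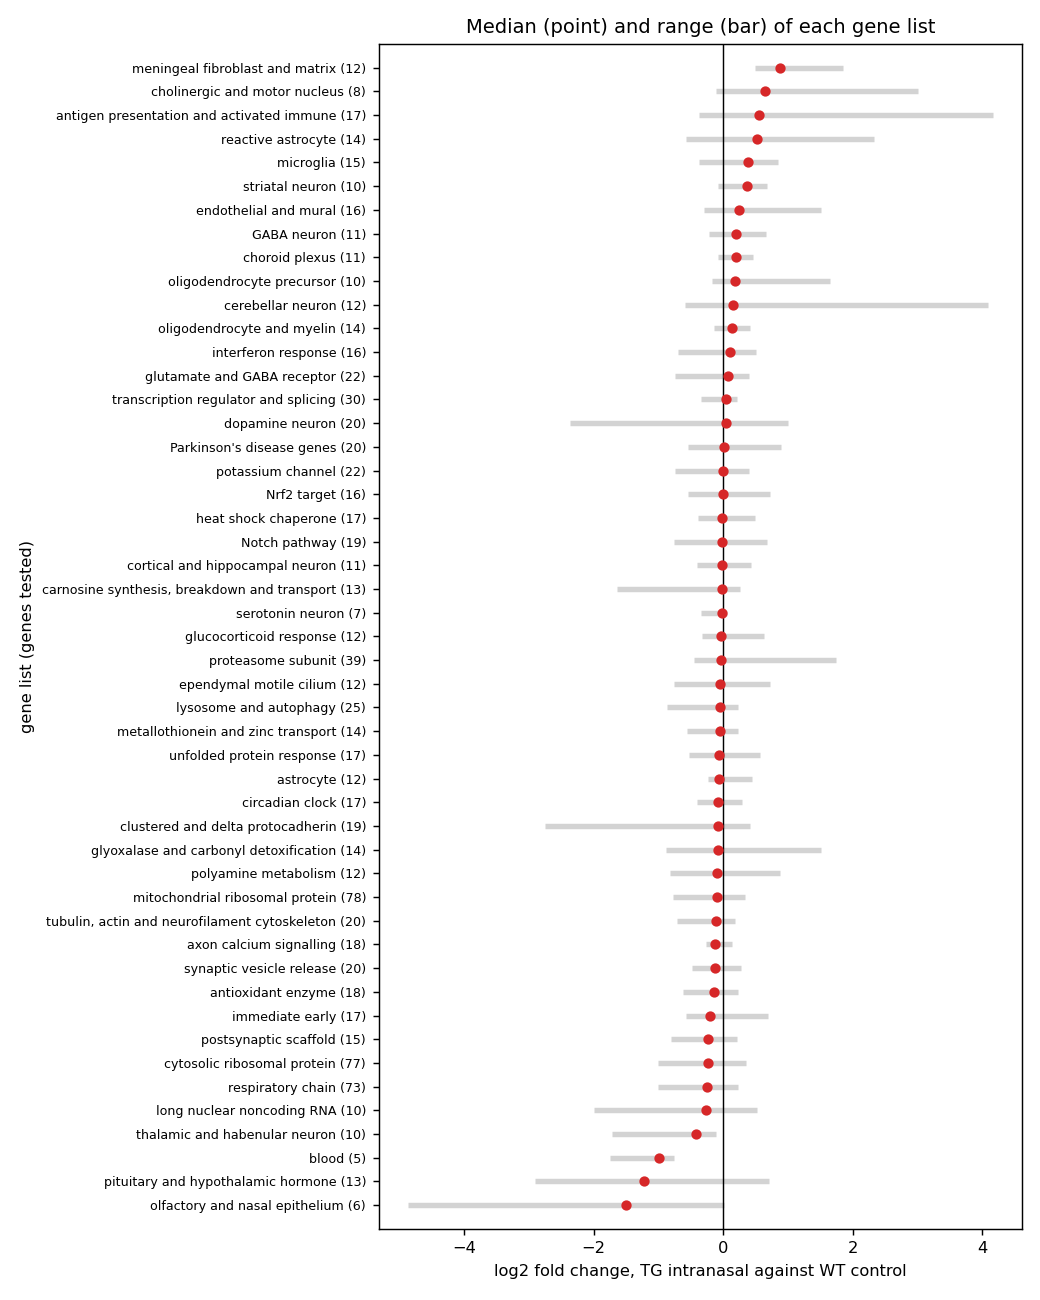
Log2 fold changes of TG intranasal against WT control in 49 gene lists, sorted by median. Points are medians, bars run from the lowest to the highest member, and the black line is the median of all tested genes, 0.00. The matrix list at the top has a median of 0.87 and its whole bar lies above the line.

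No carnosine-handling gene passed the threshold. None of 13 genes for the synthesis, breakdown and transport of carnosine had an unadjusted p under 0.05 or groups without overlap. Over all genes 10.3% had such a p, and 6.22% were higher and 6.39% lower without overlap. A list of 13 genes is too short to tell none from those shares. The median was -0.02. Carns1, carnosine synthase, had 17, 8.97 and 12.3 CPM in WT control and 14.6, 10.5 and 14.9 CPM in TG intranasal (log2 fold change 0.07, SE 0.25). Cndp2, a cytosolic dipeptidase, was at -0.04 (SE 0.14), Slc15a2, a peptide transporter of brain, at 0.02 (SE 0.15), Slc15a1, the intestinal one, at -1.64 (SE 1.17) and Slc36a1, a proton-coupled amino acid transporter, at -0.19 (SE 0.23).

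Glo1, which detoxifies methylglyoxal and has the smallest p of the carbonyl detoxification list, had 195, 153 and 198 CPM in WT control and 342, 382 and 399 CPM in TG intranasal. The 3 TG intranasal values lay above those of all other 12 libraries, whose highest was 279 CPM. Its log2 fold change was 1.04 (SE 0.22; adjusted p = 0.0974), and against TG control, which had 182 ± 20.7 CPM (SD, n = 3), it was also 1.04 (SE 0.22; adjusted p = 0.406). The median of the 14 tested genes of the list was -0.09.

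Antioxidant genes were mostly negative, 14 of 18, with a median of -0.15. Txn2, mitochondrial thioredoxin, was at -0.53 and Prdx2, a peroxiredoxin, at -0.37, and both were lower in all 12 other libraries than in the WT controls. Targets of Nrf2 had a median of -0.01: Gstm1, a glutathione transferase, was at -0.53 (adjusted p = 0.265), and Hmox1, heme oxygenase, had 6.49, 7.37 and 5.07 CPM in WT control and 9.53, 9.35 and 12.4 CPM in TG intranasal (log2 fold change 0.73; adjusted p = 0.303). Lysosome and autophagy genes had a median of -0.05, with Map1lc3a, an autophagosome membrane protein, at -0.87 (adjusted p = 0.214). In the polyamine list Oaz1, the inhibitor of ornithine decarboxylase, was at -0.82 (adjusted p = 0.212).

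Over all 50 lists, 24 medians lay within 0.1 of 0, 6 were above 0.3 and 5 below -0.3. The lists below -0.3 included olfactory and nasal epithelium (-1.49, 6 genes tested), pituitary hormones (-1.22, 13 genes), blood (-0.99, 5 genes) and thalamic and habenular neurons (-0.43, 10 genes). None of these 4 had a called gene. Single libraries stood out in the olfactory and pituitary lists. Omp, a marker of olfactory sensory neurons, had 39.4 CPM in WT control 2 and 0.287 to 2.50 CPM in the other 5 compared libraries (adjusted p = 0.152). Gh had a log2 fold change of -2.90 (adjusted p = 0.572) with 718 CPM in WT control 1.

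Chromosome 17 held more of the small p-values than other chromosomes. It carried 785 of the tested genes (4.96%) and 15 of the 92 genes with an unadjusted p under 0.001 (16.3%), or 1.91% of its genes beside 0.582% over all genes. Of these 15, 12 were lower in TG intranasal and 3 higher, and they lay from the 16th to the 725th gene along the chromosome. Spsb3 and Rnaset2b passed the threshold, and the 3 genes that follow were chosen after their values were seen. Metrn, a secreted factor of glia and neurons, had 748, 289 and 364 CPM in WT control and 211, 172 and 186 CPM in TG intranasal (log2 fold change -1.30; adjusted p = 0.143). Rhot2, which tethers mitochondria to motors, was at -0.78 (adjusted p = 0.115) and Ankrd12, an ankyrin repeat protein, at -0.91 (adjusted p = 0.0974). Metrn and Rhot2 lay below the 3 WT controls in all 12 libraries outside that group, and Ankrd12 in 7 of them. Against the same controls Metrn was at -1.55 in TG control, -1.31 in WT intranasal and -1.82 in TG drinking water. Glo1 was among the 3 higher genes. The shares of chromosome 17 among genes with p under 0.001 in the other contrasts with these controls were 10.8% for TG control, 10.2% for WT intranasal and 8.19% for TG drinking water. Genes on 1 chromosome are not independent, and no test was made of this share.

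**Figure D5:**
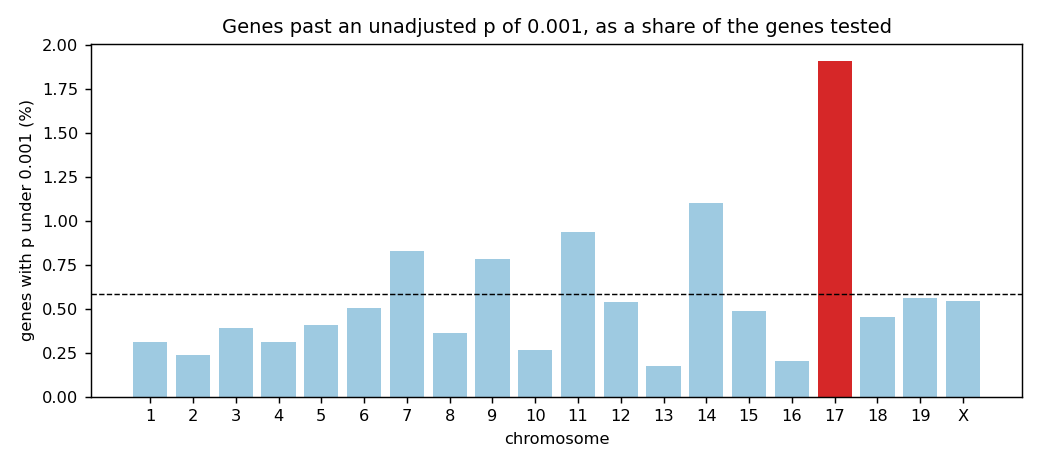
Genes with an unadjusted p under 0.001 for TG intranasal against WT control, as a percentage of the genes tested on each chromosome (vertical axis from 0). The dashed line is the share over all chromosomes, 0.582%, and chromosome 17, in red, reaches 1.91%.

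Direct comparison with untreated TG mice called a single gene, Lrrc17, a secreted leucine-rich repeat protein, named here after its values were seen. It had 16.7, 127 and 147 CPM in TG intranasal, 5.62 ± 2.61 CPM in TG control and 22.7 ± 4.04 CPM in WT control (SD, n = 3 each). TG mice on carnosine water had 112 ± 25.6 CPM and nasally treated WT mice 6.34 ± 2.00 CPM (SD, n = 3 each). TG intranasal 1 lay below all 3 WT controls and the other 2 far above them. The log2 fold change was 4.09 (SE 0.58; adjusted p = 0.0385) against TG control and 2.09 (SE 0.52; adjusted p = 0.170) against WT control.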

How the data were processed

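RNA-seq of mouse midbrain was analysed in 15 libraries, 3 in each of 5 groups taken from the sample titles. The authors deposited a table of raw counts per gene and library with 24454 rows. Libraries were made from total RNA with standard Illumina protocols, per the labels' protocols; for the aligner, counting tool, strand setting and genome build, nothing was given in the sources used here. Gene IDs were named with RefSeq on GRCm38.p6, which served for names, chromosomes and gene order, and for the positions of the printed promoters and miRNAs. Transcript lengths and transcript GC content came from GENCODE. The 80 rows whose gene ID had no name there held 2.41% to 6.23% of the counts in WT control and 0.187% to 0.306% in TG intranasal and stayed in library sizes and tests.

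Counts were tested in R 4.3.3 with edgeR 4.0.16 (filterByExpr, TMM scaling, a mean per group, quasi-likelihood test, Benjamini-Hochberg adjustment), fitted to all 15 libraries so that the groups share 1 estimate of spread; 15818 genes were tested, with a common biological coefficient of variation of 0.244. The SE is the log2 fold change divided by the square root of F. CPM are counts scaled by TMM-adjusted library size, and distances use log2 CPM with a prior count of 2. Total counts were 13202199 to 34843691 in the 6 compared libraries, and limits for a count of 0 use 3 counts and cover counting error only. limma 3.58.1 (voom) and DESeq2 1.42.0 were alternatives. The procedure was tested on simulated data.

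The text names Thy1, up to 12 called genes a direction with the smallest p, leaving out unnamed and predicted genes, and the 2 members of a described list with the smallest p; other genes are said to be chosen after their values were seen or are members of a list given whole. Members and lists were chosen with earlier results of these data known. The values of some genes under this rule are not reported here, and they stayed in the fit and the counts.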

Additional observations from a re-analysis of the deposited data

How the results depend on the processing

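Against 14 calls, DESeq2 gave 154, a replicate block 36, an adjusted p under 0.1 gave 35, voom 7, the table without the rows that mark the library split 7, a term for the split 1, and leaving out both libraries that stand apart, an alternative chosen after seeing the data, 7. The cause of these moves was not tested. A fit of only the 6 compared libraries ended the calls of Efemp1, Bmp4, Rnaset2b and Spsb3. It did not end those of Thy1, Islr, Mpzl2, Cdr1, Lars2, Mir6240, Mir6236 and Scarna2. Leaving out 1 library at a time gave 4 to 14 calls, with 4 without TG intranasal 2 and 9 without TG intranasal 1. The 3 same-numbered pairs of WT control and TG intranasal had correlations of 0.0271, 0.0360 and 0.154 in their deviations, so the numbers were not taken to pair the libraries. The mean distance of 0.831 between the groups was 0.527 over genes with at least 5 CPM in 3 libraries. Distances within the groups were not taken with that filter, so 0.527 cannot be set beside the within-group means. Thy1 stayed called in all 18 alternative fits, with a highest adjusted p of 0.0123. Of 990 values for 56 of the named genes under the alternatives, 5 changed sign, all with the term for the split: Malat1 to 0.10, Rmrp to 4.65, Rpph1 to 0.73, Gh to 4.95 and Slc36a1 to 0.0349. That term rests on TG control 3 against TG control 1 and 2, where Gh had 1.22 CPM against 557 and 9.93 CPM. Of 900 list medians, 55 moved by more than their spread. With 3 libraries a group, and deeper TG intranasal libraries, genes near 1 CPM rest on few counts in the WT controls.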
